A study of Mus musculus with 5 samples.

Results

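The 10 genes described here are markers that are widely read to tell how a macrophage is activated: Arg1, Irg1, Il1b, Il1rn, Nos2, Tnf, Ptgs2, Saa3, Mrc1 and Chil3. They were taken by their symbols from the 14161 genes listed in any of 5 RNA-sequencing libraries of cultured mouse marrow cells, and 9 of the 10 were listed. There were 3 libraries from Bmal1-knockout cells, set against 2 from wild type cells. All cells are labelled bone mesenchymal stem cells, were grown out of femur marrow of C57BL/6 mice aged 6 to 8 weeks in α-MEM with 12% serum, and were used at passages 1 to 3. Bmal1 (gene symbol Arntl) encodes the partner of CLOCK in the circadian clock. The labels name neither a driver of the deletion nor an activating agent, and nothing says that the libraries came from separate animals, so the spread between them may be technical. Members were chosen by their differences between the knockout and wild type libraries, in expected counts and FPKM. Those differences are therefore given as a description, with no p-value for a member. A member said to be called, to fall or to rise passed the edgeR threshold used for all tested genes (adjusted p under 0.05). Such a call is no independent test of the member.

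Macrophages change their transcripts with the signal they meet. Bacterial products and interferon-γ drive the so-called classical state, in which NOS2 turns arginine into nitric oxide, IRG1 (now named ACOD1) turns cis-aconitate into itaconate, and the cytokines IL-1β and TNF are made. Interleukin-4 and interleukin-13 drive the so-called alternative state, in which ARG1 turns the same arginine into ornithine and urea and the mannose receptor MRC1 and the chitinase-like protein CHIL3 appear. IL1RN is the secreted antagonist that occupies the IL-1 receptor without signalling.

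In the knockout libraries Irg1, Il1b, Arg1 and Saa3 fell, Il1rn rose and Mrc1 was not called. Macrophage markers were lower there too. Set against them, Saa3 had a ratio of 1.05 (0.914 to 1.2, counting error only) and Mrc1 of 1.78 (1.32 to 2.4). Irg1, Il1b, Arg1 and Il1rn kept their direction on that scale. Nos2 and Ptgs2 had fewer counts in every knockout library than in either wild type library, Tnf overlapped between the groups and Chil3 was listed in none of the 5 libraries. Scaled by all tested genes and taken gene by gene, Irg1, Il1b and Nos2 of the classical class were lower in knockout libraries. Tnf was too low to test, so whether that class moved as a whole cannot be told. Arg1 fell beside Irg1 and Il1b, while Mrc1 and Tnf, 1 from each class, had ratios above 1 whose intervals include 1. Whether the summed classes separated the genotypes depended on the unit and on the marker taken, as they overlapped by FPKM and did not by counts. The IL-1 pair did part, with more of the antagonist and less of the cytokine in knockout libraries.

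Expected counts, the authors' estimates of reads per gene, summed to 226695, 237088 and 281990 in knockout libraries and to 243072 and 211623 in wild type libraries, which is shallow. Levels are given as CPM, the count of a gene scaled to a common library total over the 3710 genes deep enough to test. A single count was worth 4.05 to 5.31 CPM, and a count of 0 allowed 12.1 to 15.9 CPM in a library (3 counts, counting error only). Arntl itself was found with 4, 1 and 2 counts in knockout libraries, against 5 and 0 in wild type libraries, so it does not check the labels at this depth. Macrophage markers were plentiful beside the labelled cell type: all 22 of the list (among them Lyz2, Csf1r, Adgre1 and C1qa) were detected, at 11861 to 13298 CPM summed in knockout libraries and 19389 to 20004 CPM in wild type libraries. The 16 stromal markers summed to 13186 to 14202 CPM in knockout libraries and 5150 to 5299 CPM in wild type libraries. Most of each sum came from the matrix genes Col3a1, Col1a2, Sparc and Col1a1, so it does not show a rise of the whole list. Their means were 4882, 2671, 2520 and 2008 CPM in knockout libraries and 1874, 935, 886 and 652 CPM in wild type libraries. Thy1, a surface marker of the same list, had 2 counts in knockout libraries, against 3 in wild type libraries in all.

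Promoter sequences are shown for the 3 members in which the cytokine and antagonist parted or the called fall was largest, Il1b, Il1rn and Irg1, and for Saa3, the most abundant member. They come from RefSeq on GRCm38.p6, the mm10 assembly, which holds an entry for 8 of the 10 members; Arg1 and Nos2 are named only. Each run is the 250 bases before the transcript start, 5′ to 3′ on the gene's strand, and capitals mark a match to 1 of the motifs searched. The runs are chr2:129371140-129371389 (minus strand) for Il1b, chr2:24345121-24345370 (plus) for the most downstream of 3 Il1rn starts, chr14:103046762-103047011 (plus) for Irg1 and chr7:46715677-46715926 (minus) for Saa3.
Il1b: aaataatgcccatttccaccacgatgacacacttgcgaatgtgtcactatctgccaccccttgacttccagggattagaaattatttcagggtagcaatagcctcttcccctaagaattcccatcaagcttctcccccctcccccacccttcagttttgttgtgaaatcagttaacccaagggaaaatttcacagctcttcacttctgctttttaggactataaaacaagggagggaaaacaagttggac
Il1rn: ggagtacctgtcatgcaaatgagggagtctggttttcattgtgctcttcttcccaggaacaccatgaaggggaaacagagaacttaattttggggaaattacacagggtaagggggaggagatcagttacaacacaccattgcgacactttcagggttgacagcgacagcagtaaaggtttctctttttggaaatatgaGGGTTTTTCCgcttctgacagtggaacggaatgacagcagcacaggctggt
Irg1: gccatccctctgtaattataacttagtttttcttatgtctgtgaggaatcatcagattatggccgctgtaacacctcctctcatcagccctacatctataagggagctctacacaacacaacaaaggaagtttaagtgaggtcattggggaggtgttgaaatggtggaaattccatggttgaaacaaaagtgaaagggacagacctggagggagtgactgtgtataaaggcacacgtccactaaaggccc
Saa3: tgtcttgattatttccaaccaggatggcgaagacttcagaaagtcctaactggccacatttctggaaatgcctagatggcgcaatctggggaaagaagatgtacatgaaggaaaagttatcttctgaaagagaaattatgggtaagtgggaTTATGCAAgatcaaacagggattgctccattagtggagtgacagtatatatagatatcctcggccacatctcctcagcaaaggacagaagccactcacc

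Each motif was searched on both strands from 250 bases before to 50 bases after the start. The NF-kB motif searched opens with GGG and closes with TTCC, with a fixed number of free bases between. Forms of an NF-kB site with other letters at these ends were not searched for in any member. The motif as searched was found in 5.56% of 32851 promoters and, among the members with a promoter entry, in those of Il1rn alone. Its letters GGGTTTTTCC begin 51 bases before the start shown and lie within the window of the neighbouring start too, and the most upstream start has another match, GGGCAGTTCC. The C/EBP motif (TTGCNNAA, in 10.8% of promoters) was found for Saa3, 99 bases before the start as read on the gene's strand, and for Ptgs2, where TTGCGCAA begins 69 bases before the start and reads alike on both strands. The clock's E-box (CACGTG, in 7.15% of promoters) was found for Ptgs2 alone, 17 bases into the transcript. A match is a description of these letters and not a bound site, and no match says only that the letters are not in this window.

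Il1b (Entrez gene 16176, chromosome 2, 129364569 to 129371164), the cytokine released when an inflammasome is active, had 3, 1 and 13 counts in knockout libraries, against 22 and 17 in wild type libraries. This came to 23.9 ± 25.3 CPM (SD, n = 3) in knockout libraries and 96.9 ± 9.2 CPM (n = 2) in wild type libraries, a log2 fold change of -1.91 (SE 0.44). The groups did not overlap, but knockout 3 held 13 of the 17 knockout counts. Without knockout 3 the log2 fold change was -3.27 and without knockout 2 it was -1.45. The call was lost without wild type 1 (-1.84). Of its exon bases, 25 lie opposite Il1bos, an antisense transcript, and the sources used here do not give the strand setting.

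Il1rn (Entrez gene 16181, chromosome 2, 24336860 to 24351491) went the other way. It had 34, 43 and 41 counts in knockout libraries, against 16 and 16 in wild type libraries. All 3 knockout libraries lay above both wild type libraries, at 178 ± 23 CPM (SD, n = 3) against 80.1 ± 6.98 CPM (n = 2). The log2 fold change was 1.15 (SE 0.32), and the call was lost without wild type 1 (1.04).

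Per length the order of the pair turned between the genotypes. Il1rn stood at 50.6, 59.9 and 47.5 FPKM (the authors' value scaled for gene length and depth) in knockout libraries, against 22.4 and 26.2 FPKM in wild type libraries. Il1b stood at 8.5, 2.67 and 29.1 FPKM in knockout libraries, against 59.6 and 53.0 FPKM in wild type libraries. The ratio of Il1rn to Il1b was 5.95, 22.4 and 1.63 in knockout libraries, against 0.376 and 0.494 in wild type libraries, so the antagonist was the higher in each knockout library and the lower in both wild type libraries. Of the counts of both genes, Il1rn made up 87.4% (118 of 135) in knockout libraries and 45.1% (32 of 71) in wild type libraries. By library its share was 91.9% (exact binomial interval 78.1% to 98.3%, counting error only), 97.7% (88% to 99.9%) and 75.9% (62.4% to 86.5%) in knockout libraries and 42.1% (26.3% to 59.2%) and 48.5% (30.8% to 66.5%) in wild type libraries. Both genes stand on the same chromosome, and these ratios rest on as few as 1 count of Il1b (knockout 2).

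Tnf (Entrez gene 21926, chromosome 17, 35199367 to 35202007), the other classical cytokine, was too low to test. Counts were 8, 4 and 3 in knockout libraries, against 4 and 1 in wild type libraries. Its ratio of summed counts, scaled as the CPM are, was 1.81 with an exact Poisson interval (95%, counting error only) of 0.624 to 6.36. A difference was not detectable at this depth: the ratio was 4.24 without wild type 1 and 1.2 without wild type 2, with 1 in each interval.

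**Figure D1:**
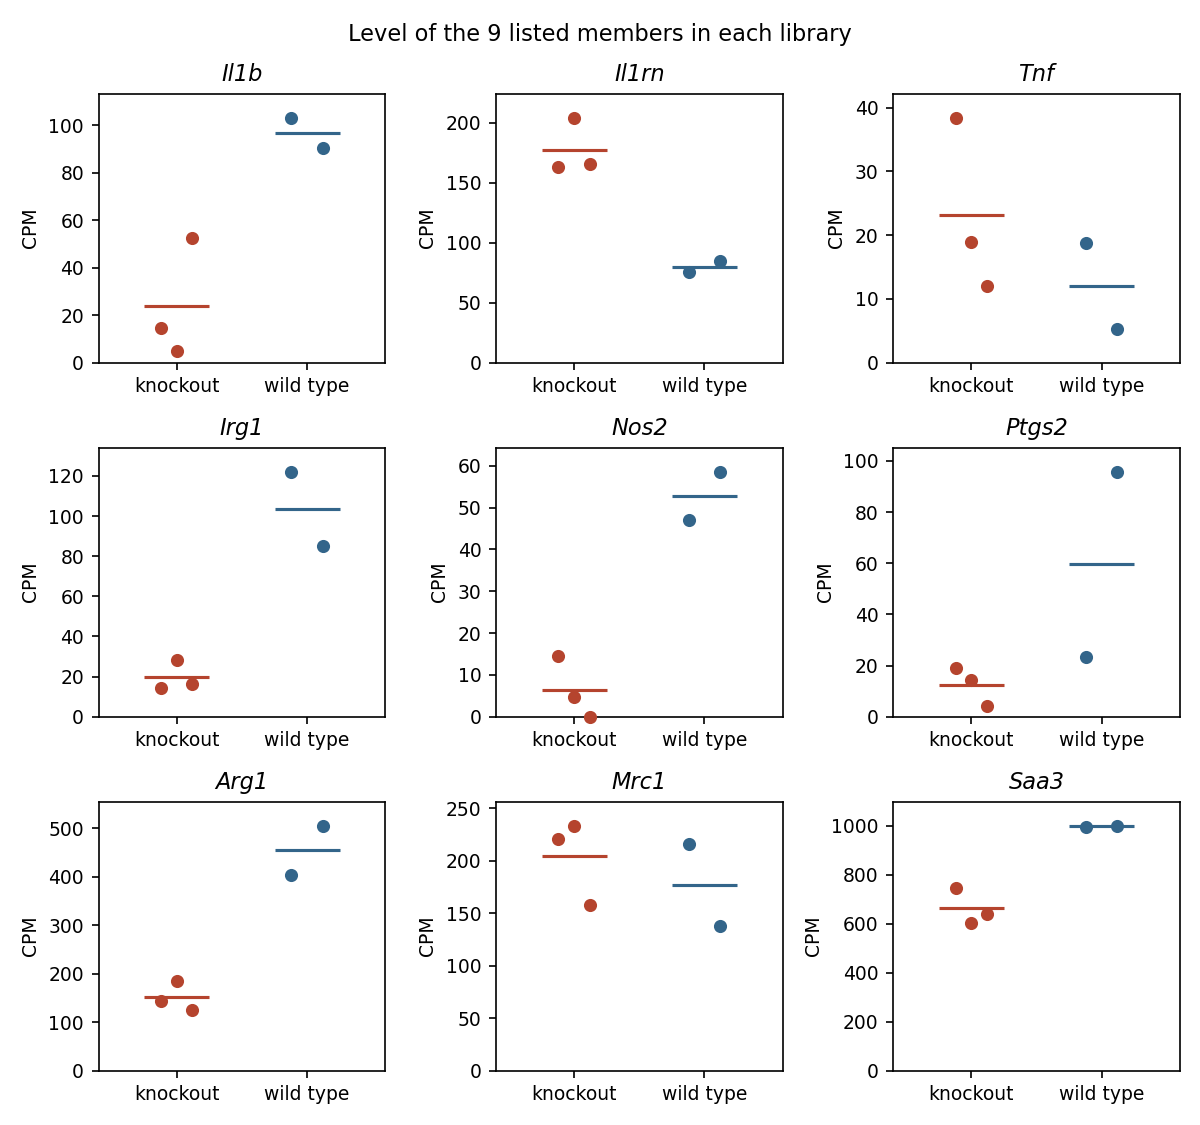
CPM (vertical axis, from 0) of the 9 listed members in each library; points are libraries, with knockout left of wild type, and the line is the group mean (n = 3 and n = 2). Il1b, Irg1, Nos2, Ptgs2, Arg1 and Saa3 have every knockout point below both wild type points, Il1rn has every knockout point above them, and Tnf and Mrc1 overlap.

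Among the enzymes, Irg1 (Entrez gene 16365, RefSeq symbol Acod1, chromosome 14, 103047012 to 103056573) showed the largest fall of the tested members. The knockout libraries had 3, 6 and 4 counts and the wild type libraries 26 and 16. That is 19.7 ± 7.69 CPM (SD, n = 3) in knockout libraries and 104 ± 26.2 CPM (n = 2) in wild type libraries, a log2 fold change of -2.38 (SE 0.46). The groups were far apart in all 5 libraries, and the call was lost without wild type 1 (-2.10), the library with more Irg1.

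Nos2 (Entrez gene 18126, chromosome 11, 78920787 to 78960226), the inducible nitric oxide synthase, had 3, 1 and 0 counts in knockout libraries, against 10 and 11 in wild type libraries. It was too low to test. The ratio of summed counts was 0.115 (0.0286 to 0.34), and it ran from 0.0417 without knockout 1 to 0.183 without knockout 3. The highest knockout library lay at 14.4 CPM and the lowest wild type library at 47.0 CPM.

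Arg1 (Entrez gene 11846, chromosome 10, 24915207 to 24927470), which competes with NOS2 for arginine, fell too. The counts were 30, 39 and 31 in knockout libraries, against 86 and 95 in wild type libraries. This came to 152 ± 30.7 CPM (SD, n = 3) in knockout libraries and 454 ± 71.3 CPM (n = 2) in wild type libraries, with a log2 fold change of -1.58 (SE 0.22). The groups did not overlap, and the fold change stayed between -1.76 and -1.42 with any one library left out. Both enzymes that use arginine thus had lower values in knockout libraries, Arg1 with a call and Nos2 below the depth for a test.

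Ptgs2 (Entrez gene 19225, chromosome 1, 150100031 to 150108234) encodes COX-2, the inducible enzyme of prostaglandin synthesis. It had 4, 3 and 1 counts in knockout libraries, against 5 and 18 in wild type libraries, too few to test. The ratio was 0.21 (0.081 to 0.485), and 0.512 (0.148 to 1.99) without wild type 2, which held 18 of the 23 wild type counts. Knockout 1, at 19.2 CPM, lay close to wild type 1, at 23.5 CPM.

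Mrc1 (Entrez gene 17533, chromosome 2, 14229414 to 14332023), the mannose receptor of alternative and of many resident macrophages, was not called. It had 46, 49 and 39 counts in knockout libraries, against 46 and 26 in wild type libraries, or 204 ± 40.4 CPM (SD, n = 3) against 177 ± 55.1 CPM (n = 2). The log2 fold change was 0.18 (SE 0.26), it was -0.10 without wild type 2 and 0.53 without wild type 1, and the groups overlapped. The ratio of summed counts was 1.12 (0.836 to 1.51, counting error only) for Mrc1 and 0.333 (0.258 to 0.427) for Arg1, and the difference between these members was not tested.

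Chil3 (Entrez gene 12655, chromosome 3, 106147554 to 106167564), a chitinase-like protein of alternative macrophages in mice, was listed in 0 of 5 libraries, which allows a level of up to 12.1 to 15.9 CPM in each. None of its relatives Chil1, Chil4, Chil5, Chit1 and Chia1 was listed either.

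Saa3 (Entrez gene 20210, chromosome 7, 46711998 to 46719615), an acute phase protein made by macrophages and other cells outside the liver, was the most abundant member. It had 155, 127 and 158 counts in knockout libraries, against 212 and 188 in wild type libraries. This came to 663 ± 73.3 CPM (SD, n = 3) in knockout libraries and 998 ± 2.27 CPM (n = 2) in wild type libraries, a log2 fold change of -0.59 (SE 0.14), the smallest of the called members. The groups did not overlap.

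Of the 6 members deep enough to test, 1 was called higher and 4 lower by edgeR at an adjusted p under 0.05, while among all 3710 tested genes 8.19% were called higher, 8.14% lower and 16.3% in either direction. The median log2 fold change was -1.09 over the 6 tested members and 0.01 over all tested genes. Separate groups were seen in 7 of the 9 listed members, 6 with the knockout below and 1 with it above. Among all tested genes they were seen in 42.7%, 21.6% with the knockout below and 21.2% with it above. Those shares leave out genes too low to test, while the 7 members include Nos2 and Ptgs2, which were too low. Nothing is read from these counts, since this contrast chose the members.

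By FPKM, which allows genes to be set side by side, the knockout order was Saa3 (1151 ± 163), Arg1 (77.3 ± 15.6), Il1rn (52.6 ± 6.49), Mrc1 (27.2 ± 5.86), Il1b (13.4 ± 13.9), Tnf (11.0 ± 6.86), Irg1 (5.52 ± 2.09), Ptgs2 (2.02 ± 1.29) and Nos2 (1.23 ± 1.44; SD, n = 3). In the wild type libraries it was Saa3 (1773 ± 24.1), Arg1 (237 ± 39.5), Il1b (56.3 ± 4.67), Irg1 (29.8 ± 7.18), Il1rn (24.3 ± 2.64), Mrc1 (24.1 ± 7.2), Ptgs2 (9.78 ± 8.45), Nos2 (9.63 ± 0.99) and Tnf (5.62 ± 4.31; SD, n = 2). Saa3 and Arg1 thus led in both genotypes. In the knockout order, Mrc1, Il1b, Tnf and Irg1 overlapped each with the next, as did Ptgs2 and Nos2. Overlaps between neighbours in the wild type order were those of Irg1 with Il1rn, Il1rn with Mrc1, and Ptgs2 with Nos2.

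Because the macrophage markers were themselves lower in knockout libraries, each member was also set against them. Of the 22 markers, all tested, 12 fell, 0 rose and 10 did not pass, with a median log2 fold change of -0.59, beside 8.14% of all tested genes called lower. The number that fell was 7 without wild type 1, 6 without wild type 2 and 9 to 12 without a knockout library, with a median between -0.66 and -0.57. Lyz2, the lysozyme of macrophages, stood at 6789 ± 282 CPM (SD, n = 3) in knockout libraries and 10767 ± 261 CPM (n = 2) in wild type libraries (log2 fold change -0.67, edgeR adjusted p = 1.8e-10), and Ctss, a lysosomal protease, fell by 0.86 (adjusted p = 3.0e-09). Mpeg1, a pore-forming protein, fell by 0.98 (adjusted p = 1.9e-12). In bulk RNA, fewer macrophages and less RNA of a gene per macrophage cannot be told apart.

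Of the macrophage marker counts, Lyz2 held 4517 of 8288 in knockout libraries and 4322 of 7906 in wild type libraries. A scaling by these markers thus rests largely on this gene. Per 1000 macrophage marker counts, Arg1 had 10.8, 15.6 and 10.2 counts in knockout libraries, against 20.2 and 26.0 in wild type libraries. The values for Irg1 were 1.08, 2.4 and 1.32 in knockout libraries, against 6.11 and 4.39 in wild type libraries. Both stayed below the wild type in every knockout library, at ratios of 0.527 (exact Poisson interval 0.409 to 0.676) for Arg1 and 0.295 (0.145 to 0.561) for Irg1. Il1b at 0.416 (0.221 to 0.752) and Nos2 at 0.182 (0.0453 to 0.539) did so as well.

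Saa3 no longer separated the groups on this scale. It had 56.0, 50.9 and 52.2 per 1000 marker counts in knockout libraries, against 49.8 and 51.5 in wild type libraries, a ratio of 1.05 (0.914 to 1.2). Mrc1 had 16.6, 19.6 and 12.9 in knockout libraries, against 10.8 and 7.13 in wild type libraries, a ratio of 1.78 (1.32 to 2.4), with every knockout library above both wild type libraries. Il1rn stood at a ratio of 3.52 (2.36 to 5.37) and Tnf at 2.86 (0.989 to 10.1). This scaling moves the log2 ratios of all members up by the same amount, so which of them come near or cross 0 follows from the size of their ratios under the first scaling. Ptgs2, at 0.332 (0.128 to 0.768), overlapped between the groups on this scale.

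**Figure D2:**
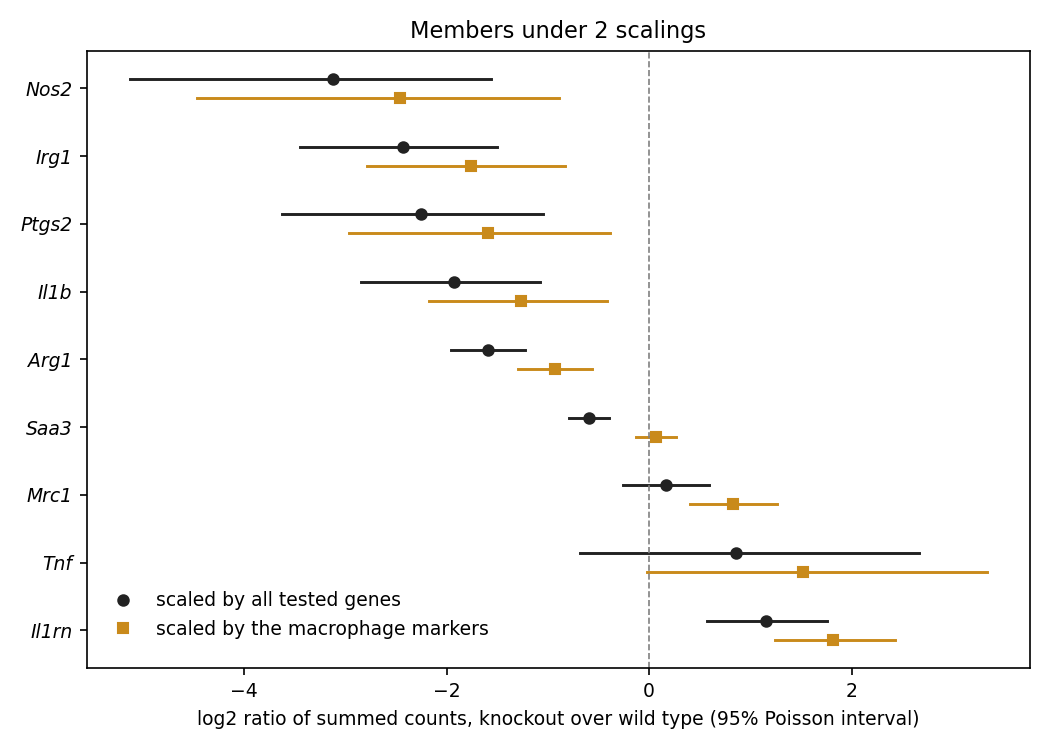
Log2 ratio of summed counts, knockout over wild type, for each listed member (rows), with 95% exact Poisson intervals that cover counting error only; circles are scaled by all tested genes and squares by the summed macrophage markers. Nos2, Irg1, Ptgs2, Il1b and Arg1 lie left of 0 under both scalings, Saa3 moves to 0.07 under the second, and Il1rn lies right of 0 under both.

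Whether the classes moved apart was read from each library as the summed FPKM of the alternative markers (Arg1 and Mrc1, with Chil3 listed in none) over that of the classical markers (Irg1, Il1b, Nos2 and Tnf). The ratio was 3.13, 6.11 and 2.11 in knockout libraries, against 2.13 and 3.14 in wild type libraries. By this measure the genotypes overlap, and the mean log2 ratio was higher in knockout libraries by 0.41, less than the pooled SD between replicates of 0.67. Without knockout 2 the difference was -0.01. Summed counts in place of FPKM, which weigh genes by length as well, gave ratios of 4.47, 7.33 and 3.5 in knockout libraries, against 2.13 and 2.69 in wild type libraries. These do not overlap, and the mean log2 ratio differed by 1.02, so the separation depends on the unit.

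It also depends on the marker taken for the alternative class. Mrc1 alone over the same 4 classical markers gave 0.892, 1.51 and 0.523 in knockout libraries, against 0.26 and 0.209 in wild type libraries, which do not overlap. Arg1 alone over them gave 2.23, 4.6 and 1.59 in knockout libraries, against 1.87 and 2.93 in wild type libraries, which do. Among the classical markers Tnf was the one whose summed counts were not lower in knockout libraries.

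**Figure D3:**
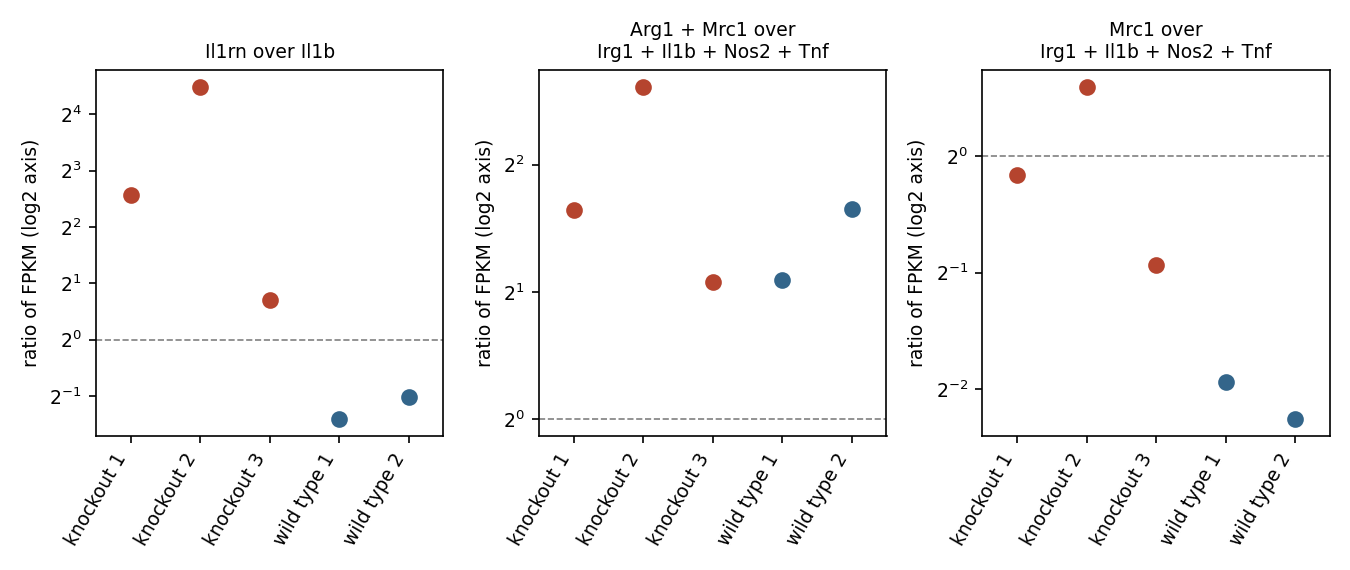
Ratios of FPKM in each library on a log2 axis, for Il1rn over Il1b (left), Arg1 and Mrc1 over the classical markers (middle) and Mrc1 alone over them (right); red points are knockout, blue points wild type, and the dashed line marks a ratio of 1. The left and right panels separate the genotypes (1.63 to 22.4 against 0.376 to 0.494 on the left), and the middle panel does not.

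Other genes of both activation programs were read from lists that leave the members out. Of 27 further classical genes, 24 were listed and 11 tested: 3 fell, 0 rose and 8 did not pass, with a median log2 fold change of -0.53. Cd38, an enzyme that consumes NAD, fell by 1.42 (edgeR adjusted p = 0.00142), with counts of 12, 5 and 17 in knockout libraries, against 30 and 25 in wild type libraries. Clec4e, a lectin, fell by 0.94 (adjusted p = 0.0219), with no call when knockout 1 (-0.80), wild type 1 (-0.84) or wild type 2 (-1.05) was left out. Without wild type 1, 1 gene of the list fell. The log2 fold change was below 0 in 9 of the 11 tested genes and above it in 2, which were Irf5, a regulator of the classical state, at 0.13 (adjusted p = 0.756) and Ccl2, a monocyte chemokine, at 0.05 (adjusted p = 0.946). Il6 had 8 counts in knockout libraries, against 10 in wild type libraries, a ratio of summed counts of 0.482 (0.165 to 1.36, counting error only). Of the other untested genes, Il1a (0.329), Fpr2 (0.349), Cxcl2 (0.215), Cxcl3 (0.134) and Ccl4 (0.0861) had intervals under 1. Wild type 1 held 31 of the 38 wild type counts of Fpr2. Marco (3.01) and Ccl3 (1.2) had ratios above 1 with intervals that include 1, and Slamf1 had 1 count, in a knockout library. Il12a, Il12b and Il23a were listed in none. These untested genes and Clec4e, Irf5 and Ccl2 were picked after their values were seen.

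Of 25 further alternative genes, 19 were listed and 6 tested, with 1 called higher, 2 lower and 3 not, at a median of -0.48. The log2 fold change was below 0 in 4 of the 6 tested genes and above it in 2. Those not called were Cd163 (-1.25, edgeR adjusted p = 0.0526), Stat6 (-0.37, adjusted p = 0.591) and Il4ra (0.13, adjusted p = 0.862). Every knockout library lay below both wild type libraries for Cd163. Fn1, fibronectin, which stromal cells make in quantity, rose to 2121 ± 118 CPM (SD, n = 3) in knockout libraries, against 1146 ± 99.9 CPM (n = 2) in wild type libraries (log2 fold change 0.89, adjusted p = 8.8e-12), and 292 of its exon bases lie opposite Apol7d. Tgm2, a cross-linking enzyme with 1003 exon bases opposite other genes, fell by 1.10 (adjusted p = 0.00044). Msr1, the scavenger receptor of macrophages, fell by 0.59 (adjusted p = 0.00582). The calls of Tgm2 and Msr1 were lost without wild type 1 (-0.99 and -0.49), which left 0 genes that fell. Retnla, Ccl17, Ccl22 and Ccl24, which interleukin-4 induces in mouse macrophages, and the lectins Cd209a and Cd209d were listed in none of the 5 libraries.

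The signals themselves were barely seen. Il4 had 0 counts in knockout libraries, against 1 in wild type libraries, Il13 1 and 0, Il10 0 and 1, and Ifng and Csf2 were listed in none. Csf1, the growth factor of macrophages, rose by 1.14 on the log2 scale (edgeR adjusted p = 0.00113), with 43, 50 and 54 counts in knockout libraries, against 23 and 17 in wild type libraries, not called without wild type 2 (1.02).

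Around IL-1β, 18 of 21 pathway genes were listed and 3 tested. Irak3, a kinase-like brake on IL-1 and Toll-like receptor signalling, fell by 1.31 (edgeR adjusted p = 0.0219) and 2 did not pass. The call was lost without knockout 2 (-0.97) or wild type 2 (-0.99), and 220 of its exon bases lie opposite other genes. The receptor Il1r1 had 22 counts in knockout libraries, against 14 in wild type libraries, too few to test. Scaled as the CPM are, its ratio of summed counts was 0.947 (0.463 to 2, counting error only). The decoy receptor Il1r2 was listed in none.

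Around TNF, 16 genes were listed and 7 tested: 2 fell, 0 rose and 5 did not pass, with a median of -0.46. Tnfrsf1b, the TNF receptor of leukocytes, fell by 1.25 (edgeR adjusted p = 0.000281). Birc3, an inhibitor of apoptosis that NF-kB induces, fell by 2.09 (adjusted p = 0.000722), with 3, 5 and 5 counts in knockout libraries, against 16 and 18 in wild type libraries. Both calls were lost without wild type 2 (-1.02 and -1.92), which left 0 genes called.

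Arginine and polyamine genes, which cover arginine uptake, synthesis and use as well as polyamines, had 18 of 19 listed and 6 tested. Of these 1 fell and 5 did not pass, with a median of 0.13. Sat1, which acetylates polyamines for export, fell by 1.11 (edgeR adjusted p = 0.00646), not called without wild type 2 (-0.84). Odc1, which makes putrescine from the ornithine that arginase yields, was at 0.06 (adjusted p = 0.92), and Arg2, the mitochondrial arginase, was at -1.16 (adjusted p = 0.058). For itaconate and citrate, all 18 genes were listed and 9 tested; 1 fell and 8 did not pass, with a median of -0.12. Hmox1, the haem oxygenase that NRF2 induces, fell by 1.05 (adjusted p = 2.8e-09). Odc1 and Arg2 were picked after their values were seen.

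In the prostaglandin pathway 17 of 20 genes were listed and 5 tested: 2 fell and 3 did not pass, with a median of -0.35. Pla2g7, a secreted phospholipase of macrophages that breaks down platelet-activating factor, fell to 269 ± 17.8 CPM (SD, n = 3) in knockout libraries, against 677 ± 39.8 CPM (n = 2) in wild type libraries (log2 fold change -1.33, edgeR adjusted p = 5.9e-13), and has 319 exon bases opposite another gene. Ptger1, a prostaglandin receptor, was called at -0.35 (adjusted p = 0.0418), but 3875 of its exon bases lie opposite another gene, so without a known strand setting the reads of both cannot be told apart. That call also needed each of knockout 1 (-0.28 without it), knockout 3 (-0.31), wild type 1 (-0.31) and wild type 2 (-0.39). Ptges, the inducible synthase that acts after COX-2, had 10 counts in knockout libraries, against 21 in wild type libraries, too few to test. Scaled as the CPM are, its ratio of summed counts was 0.287 (0.121 to 0.636, counting error only). It was picked after its values were seen.

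Acute phase genes split. Of 15 in the list, 9 were listed in the files and 4 tested; 2 were called higher, 1 lower and 1 not, with a median of 0.41. Ptx3, a long pentraxin, rose by 2.29 on the log2 scale (edgeR adjusted p = 1.3e-06), with 30, 31 and 38 counts in knockout libraries, against 4 and 8 in wild type libraries. Hp, haptoglobin, rose by 0.98 (adjusted p = 0.000125), which was not called without wild type 2 (0.80). C3, the central complement component, fell by 1.28 (adjusted p = 3.5e-11). Saa1, Saa2 and Saa4, the relatives of Saa3, were listed in none.

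Lectins and other relatives of Mrc1 and Chil3 had 8 of 13 listed and 5 tested: 2 fell, 0 rose and 3 did not pass, with a median of -0.63. Clec4d, a C-type lectin of macrophages, fell by 1.12 (edgeR adjusted p = 2.7e-06). Cd68, a lysosomal glycoprotein that the macrophage list also holds, fell by 0.64 (adjusted p = 0.0447), a call that needed each of knockout 2 (-0.57 without it), knockout 3 (-0.64), wild type 1 (-0.48) and wild type 2 (-0.80). Mrc2, the collagen-binding paralog of Mrc1 found on stromal cells, was at 0.48 (adjusted p = 0.551).

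**Figure D4:**
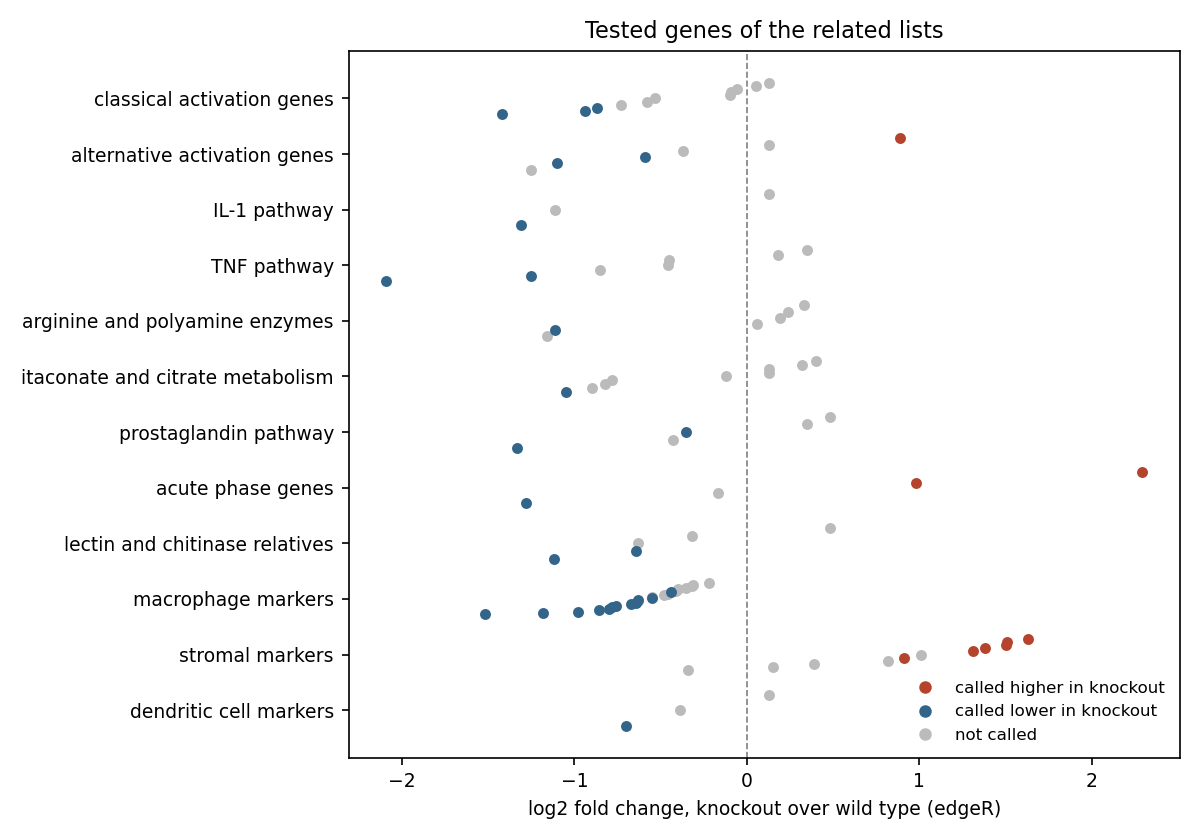
Log2 fold changes (horizontal axis, knockout over wild type, edgeR) of the tested genes in each list with at least 3 of them (rows); red points were called higher in knockout libraries, blue points lower and grey points not called at an adjusted p of 0.05. All 22 macrophage markers lie left of 0, with 12 called, and 6 of 11 stromal markers are called right of 0; Cd68 appears in 2 lists.

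Markers of other cells were read in the same libraries. Of 11 tested stromal markers 6 rose, 0 fell and 5 did not pass (median 1.01). The calls were led by the matrix genes Col3a1, Col1a1, Col1a2 and Sparc (log2 fold changes 1.38, 1.63, 1.51 and 1.5). The 5 that did not pass were Pdgfra (-0.34), Pdgfrb (0.15), Prrx1 (0.39), Vcam1 (0.82) and Dcn (1.01). The median was 0.67 without wild type 2 and 1.31 without wild type 1. Of 3 tested dendritic cell markers Zbtb46, a transcription factor also found in endothelium, fell by 0.70 (edgeR adjusted p = 1.5e-07) and 2 did not pass; Flt3, Itgax and Siglech were listed in none. Neutrophil markers summed to 71.3 to 85 CPM in knockout libraries and 117 to 149 CPM in wild type libraries, with S100a9, Ly6g, Mpo and Elane at 0 and Mmp8, the 1 tested, not called (-1.12, adjusted p = 0.145). Markers of B, T and NK cells summed to 42.8 to 76.9 CPM in knockout libraries and 94 to 117 CPM in wild type libraries, with Cd3d, Cd3e and Cd3g at 0 and none tested. Gzmb alone held 3 of their 38 counts in knockout libraries and 23 of their 42 counts in wild type libraries, so these sums do not show a fall of the whole list. Eosinophil, basophil and mast cell markers held 1 tested gene, Epx, the eosinophil peroxidase, which was not called (0.28, adjusted p = 0.0521) but was without knockout 1 (0.36), with Prg2 and Siglecf at 0. The part of these other cells in the member values was not tested.

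For the 3 tested members with the most counts, the genes with the nearest profile were found among 3704 tested genes, as the Euclidean distance between mean-centred log2 CPM over the 5 libraries. The profile of Saa3 was nearest to Dennd5a (0.04), Usp25 (0.11) and Ehd4 (0.12), none of which was called, where the median distance was 0.98. Arg1 was nearest to E230013L22Rik (0.29), Oas3 (0.29) and Mx1 (0.35), all called lower, where the median was 1.86; Oas3 and Mx1 are interferon-induced antiviral genes. Mrc1 was nearest to Nucb1 (0.15), S100a11 (0.16) and Azin1 (0.18), none of them called, with a median of 0.98. Exon bases opposite another gene numbered 356 for E230013L22Rik and 358 for Azin1. With 5 libraries in 2 groups many genes share a profile, and these distances are a description.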

How the data were processed

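Total RNA of cultured marrow cells was sequenced in 5 libraries, grouped by the labels' titles. The authors deposited per-library tables of an expected count, an FPKM value and a length per gene, per the file headers. The mm10 build and the tools RSEM, Bowtie2, HISAT2 and StringTie appear, without versions, per the submitters' processing notes. Other steps are not given in the sources used here. Of the deposited expected counts, 93.8% to 94.2% were whole within 0.005, and those of the members were all whole. A gene missing from a table was taken as 0.

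Counts were rounded and compared by the edgeR package (4.0.16, R 4.3.3; filterByExpr with minimum count 10 and minimum total 15, TMM, robust quasi-likelihood, genotype as the term, Benjamini-Hochberg at 0.05 over all tested genes). The fit was tested on simulated data. Standard errors come from the quasi-likelihood F. Members and some list genes too low for the filter, and scaled ratios, have ratios of summed counts with exact Poisson intervals (95%). DESeq2 1.42.0, limma 3.58.1, other scalings and filters and each library left out were alternatives. Exon overlaps come from GENCODE M21, sequences and coordinates from RefSeq GRCm38.p6.

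The members and the 16 gene lists were chosen with earlier results of these data known. The genes named are the members, up to 2 called genes per direction of each list with the smallest adjusted p (the 2 most abundant tested genes where none was called), the 3 most abundant macrophage and stromal markers and the 3 nearest profiles of 3 members. Genes of the lists named beyond this were picked after their values were seen. Of the genes this rule names, 1 is not reported here.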

Additional observations from a re-analysis of the deposited data

How the results depend on the processing

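Of the called members, Arg1, Irg1, Il1b, Il1rn and Saa3 kept their direction under every alternative fit, though Saa3 set against the macrophage markers was at a log2 ratio of 0.07, and the uncalled Mrc1 turned without wild type 2 (-0.10) and was at 0.53 without wild type 1. DESeq2 gave no adjusted p for Irg1 and Il1b. It called 149 genes higher and 131 lower, 2 members lower and 24 genes of the lists, against 304, 302, 4 and 37 by edgeR. Limma on log2(FPKM + 1) called 64 genes higher and 49 lower, 0 members higher and 2 lower, and 9 list genes; with a pseudocount of 0.1 these were 44, 34, 0, 1 and 7. Il1b, Il1rn and Saa3 lost their calls in both FPKM fits and Arg1 in that with 0.1 (-1.63), and the cause was not tested. RLE, upper-quartile or no scaling factors, both other filters and voom moved no such count past 1.5 times; both other filters tested Nos2 (-2.98) and Ptgs2 (-2.20 and -2.19) and called them lower. With a library left out, genes called ran from 144 to 323 higher and from 146 to 287 lower, members called from 0 to 1 higher and from 3 to 4 lower, and list genes from 22 to 36. The alternative to classical difference ran from -0.01 to 0.76 with a library left out; beside 0.41 it was 1.93 without Arg1, 1.02 from counts, 0.12 without Mrc1 and 0.09 without Il1b, all 4 added after seeing the data. With the replicate number as a block, 229 genes were higher and 212 lower, and Il1b was at -3.27. In that fit knockout 3 has no partner and so adds nothing to the fold changes. Deviations of the same-numbered libraries correlated at -0.00758 and 0.0262. Counting error is large for most genes at this depth, so these values cannot tell whether the libraries are paired. Counts of 1 to 10 in a library limit Il1b, Irg1, Nos2, Tnf and Ptgs2.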
